A study of Homo sapiens with 43 samples.

Results

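HMC3 cells that had been kept for 3 days with dexamethasone at 1 µM, and then for 3 days in medium without hormone (group dex high6), were set against HMC3 cells taken through the same steps with hydrocortisone at 10 µM (group cort high6). The members are the 6 libraries, of 43 in the series, that the treatment labels place in these groups, 3 in each. HMC3 is an immortalised human line sold as microglial (microglia are the macrophages that live in the brain), and all flasks were started from the same passage. On day 3 each flask was collected on its own and an equal number of viable cells was moved to a new flask without hormone, so each day 6 library descends from a flask that had been exposed. Side comparisons used the same doses while the hormone was still present (dex high3 and cort high3, 3 libraries each), the 4 ethanol vehicle libraries of day 6 (1 each of dex vehicle high6, dex vehicle low6, cort vehicle high6 and cort vehicle low6) and the day 3 vehicles of the high doses (dex vehicle high3 and cort vehicle high3, 3 each). The hormones were given at different concentrations, so a difference between them belongs to the compound and its dose together and these cannot be told apart. The labels say no more of the replicates than that flasks were collected separately, so the p-values cover only the spread among these flasks, part of which may be technical.

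Glucocorticoids enter the cell and bind the glucocorticoid receptor, the product of NR3C1, which chaperones hold ready in the cytoplasm. The bound receptor moves to the nucleus, switches on genes such as TSC22D3, FKBP5 and PER1, and dampens many inflammatory genes. Hydrocortisone (cortisol) is the natural human hormone. Dexamethasone is a synthetic relative with an added fluorine atom, methyl group and ring double bond, known as the more potent and longer acting of the pair. The comparison asks which genes still separated the hormones once both had been withdrawn.

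The 6 libraries held 14996099 to 21087994 counts each. Ribosomal RNA genes took 12.6, 64.4 and 16.8% of the counts in dexamethasone replicates 2, 3 and 4, against 31.1, 23.1 and 24.3% in hydrocortisone replicates 2, 3 and 4, so dexamethasone replicate 3, with 6205480 other counts, was the shallowest. Mitochondrial transcripts of all kinds made up 8.49 to 11.3% of the other counts with dexamethasone and 12.2 to 13.2% with hydrocortisone. An exact permutation test gave a two-sided p = 0.1, the smallest that 3 against 3 allows. The day 6 vehicles had 9.63 to 13.7%, and the part of this difference in the results was not tested. Mitochondrial mRNA alone made up 0.244 to 0.351% with dexamethasone and 0.312 to 0.333% with hydrocortisone. These ranges overlapped, so the separation lay in mitochondrial transcripts other than mRNA. In these 6 libraries 3 of 27 microglia and macrophage markers had a median above 1 CPM (counts scaled to a common library size, here without ribosomal RNA) and 19 were not in the table. Among 20 fibroblast and pericyte markers 13 passed that level, with the collagen gene COL1A1 at 1880 to 2180 CPM with dexamethasone and 1680 to 1900 CPM with hydrocortisone. The summed microglia markers stood at 102.7 to 106.2 CPM with dexamethasone and 103.9 to 114.9 CPM with hydrocortisone, and the summed fibroblast markers at 5155 to 5829 CPM with dexamethasone and 5047 to 5309 CPM with hydrocortisone. In bulk RNA, fewer cells of a type and less RNA per cell cannot be told apart.

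After 3 days without hormone the cells that had received dexamethasone still differed from those that had received hydrocortisone. In the direct comparison 327 of 16816 genes passed the threshold, which is 1.94%. The test was edgeR's quasi-likelihood F test, with p-values adjusted over all genes by Benjamini-Hochberg and a threshold of 0.05. Of these, 167 were higher with dexamethasone (0.993% of the genes tested) and 160 lower (0.951%), and 31 were higher and 13 lower at least 2-fold. The typical difference was small, with a median size of 0.49 on the log2 scale among the genes that passed, and 195 of the 327 differed by less than 1.5-fold. Protein-coding genes numbered 298 of the 327, and the libraries of the groups did not overlap for 325 of them. Over all genes the libraries did not overlap, with dexamethasone higher, for 1943 (11.6%) and, with dexamethasone lower, for 2003 (11.9%), so a lack of overlap alone marks many genes. Levels below are CPM of the scaled library size, with replicates in the order 2, 3 and 4, and fold changes are dexamethasone over hydrocortisone on day 6 unless stated.

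**Figure D1:**
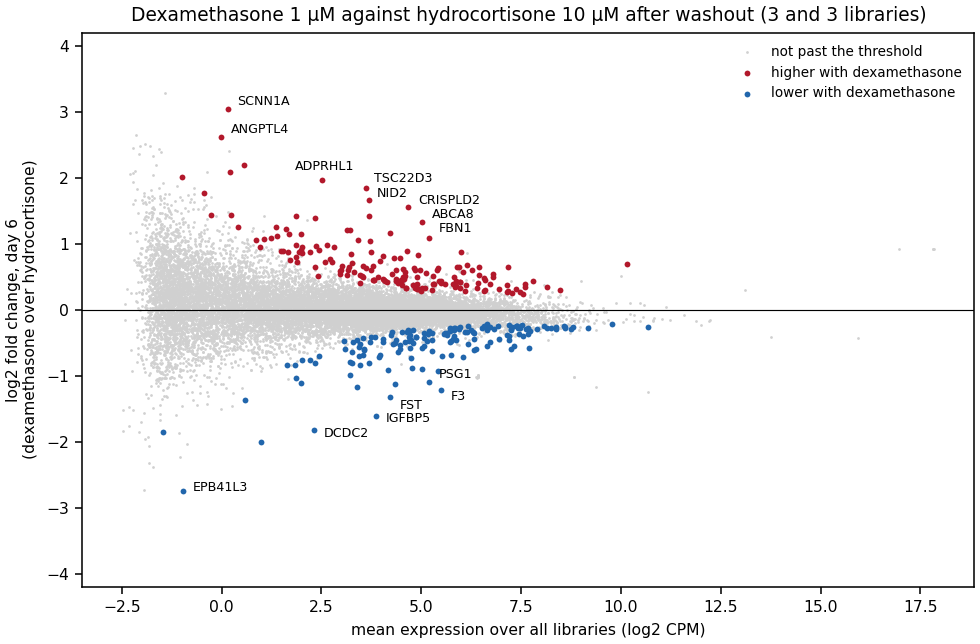
Each of 16816 genes by its mean level over all libraries (log2 CPM, x axis) and its log2 fold change of dexamethasone 1 µM over hydrocortisone 10 µM on day 6 (y axis); red and blue points passed an adjusted p of 0.05. The 167 higher and 160 lower genes spread over the whole range of levels, with SCNN1A and ANGPTL4 at low counts.

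A fit without a library has less power, and the part of this in the calls lost in such fits was not tested. The number of genes fell whichever library was left out. It was 161 without dexamethasone replicate 3, 186 without dexamethasone replicate 2, 171 without hydrocortisone replicate 4, 196 without hydrocortisone replicate 3, 205 without hydrocortisone replicate 2 and 264 without dexamethasone replicate 4. When each hormone was first set against the mean of its own high-dose and low-dose vehicles of day 6, 88 genes passed, 56 of them among the 327. Each of these vehicle groups had 1 library. Of the dexamethasone vehicles in that contrast, dex vehicle high6 replicate 4 held 77.1% ribosomal RNA and 3187756 other counts, the fewest of the 4 day 6 vehicles. The other, dex vehicle low6 replicate 3, had equal weight and held 21.1% ribosomal RNA and 11396671 other counts. The part of dex vehicle high6 replicate 4 in the calls lost there was not tested.

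Of 40 tested genes known as targets of the glucocorticoid receptor 9 rose with dexamethasone, 0 fell and 31 did not pass, beside 0.993% of all genes that rose. In 29 of the 40 the difference was above 0, and the list's median log2 fold change was 0.23, against -0.005 over all genes. Among them were TSC22D3, PER1, KLF9, CRISPLD2, ANGPTL4, TIPARP, NFKBIA and MT2A. Leaving out any of the 6 libraries left 7 to 9 of the list's genes past the threshold, and with the vehicles subtracted 4 were above it and 1, KLF15, below.

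TSC22D3 encodes the glucocorticoid-induced leucine zipper protein, a mediator of the anti-inflammatory action of these hormones (ENSG00000157514; GRCh38 chromosome X, 107713221 to 107777342, minus strand). Its level was 18.6, 15.3 and 12.2 CPM in the dexamethasone libraries, against 3.55, 5.19 and 4.09 CPM in the hydrocortisone libraries and 2.54 to 3.07 CPM in the 4 vehicle libraries. The lowest dexamethasone library lay above the highest hydrocortisone library, and all hydrocortisone libraries lay above all vehicles. The fold change was 3.59 (log2 1.84, SE 0.25, adjusted p = 2.6e-05). PER1, a repressor of the circadian clock whose promoter region responds to glucocorticoids, had 24.5, 18.5 and 16.4 CPM with dexamethasone, against 7.57, 7.87 and 6.66 CPM with hydrocortisone and 3.83 to 7.26 CPM in vehicles. It was 2.69-fold higher with dexamethasone (log2 1.43, SE 0.22, adjusted p = 9.92e-05), and the hydrocortisone libraries reached into the range of the vehicles. With the hormones' own vehicles subtracted, TSC22D3 and PER1 kept their direction and lost the call (adjusted p = 0.0582 and 0.525).

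The 300 bases around a start of TSC22D3 are shown because the gene is the classic receptor target among the largest rises. The letters ACANNNTGT, the inverted repeat at the core of a glucocorticoid response element, read the same on both strands and are in capitals. The region is chrX:107775939-107776238 on the minus strand of GRCh38.p14, from RefSeq, which lists 4 starts for this gene. The start shown is the first of these that holds a match, and the match begins 7 bases before it.
TSC22D3: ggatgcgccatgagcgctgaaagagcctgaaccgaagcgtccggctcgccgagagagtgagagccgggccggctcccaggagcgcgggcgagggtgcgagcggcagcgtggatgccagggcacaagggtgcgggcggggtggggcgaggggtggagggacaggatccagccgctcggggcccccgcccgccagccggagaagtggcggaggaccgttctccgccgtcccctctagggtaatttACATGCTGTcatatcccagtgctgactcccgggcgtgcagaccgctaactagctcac
These letters were found in 1885 of all 35116 promoters of that length (5.37%). They were in those of 7 of the 123 higher genes and 12 of the 113 lower genes that have an entry. The share of all promoters counts each start, while a gene counts if any of its starts holds a match, so the units differ. Of the 89 genes named for the direct comparison 65 have an entry and 4 hold the letters, DDB2, NPR3, SERPINE2 and TSC22D3.

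CRISPLD2, a secreted protein induced by glucocorticoids in airway muscle, had 47.0, 50.1 and 51.2 CPM with dexamethasone, against 14.4, 18.2 and 18.1 CPM with hydrocortisone and 4.53 to 8.71 CPM in vehicles (GRCh38 chromosome 16, 84819984 to 84920768). The 3 groups did not overlap, and the difference between the hormones was 2.93-fold (log2 1.55, SE 0.17, adjusted p = 2.54e-07). NFKBIA, the inhibitor that holds NF-kB in the cytoplasm, was 1.83-fold higher, with 18.4 to 21.1 CPM with dexamethasone and 9.89 to 12.1 CPM with hydrocortisone (adjusted p = 3.31e-05). TIPARP, an ADP-ribosyltransferase, was higher by 0.50 on the log2 scale (adjusted p = 0.00058). CRISPLD2, NFKBIA and TIPARP also passed when the vehicles were subtracted.

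The remaining receptor targets gave smaller or less certain differences. ANGPTL4, an inhibitor of lipoprotein lipase, had 2.66, 2.35 and 2.24 CPM with dexamethasone and 0.371, 0.407 and 0.382 CPM with hydrocortisone, which are 7 to 12 reads in a hydrocortisone library (log2 2.62, SE 0.61, adjusted p = 0.0106). It missed the threshold when any hydrocortisone library was left out, at adjusted p of up to 0.0772. SCNN1A, a subunit of the epithelial sodium channel and a target of corticosteroids in kidney and lung, is outside the list and was picked after its values were seen. It had 1.25, 2.85 and 1.05 CPM with dexamethasone and 0.265, 0.204 and 0.139 CPM with hydrocortisone (adjusted p = 0.0448), of the 6 fits without a single library it kept the call in 1, without dexamethasone replicate 4 (up to 0.222 in the others), and its direction turned with the vehicles subtracted (log2 -1.65, adjusted p = 0.744). The zinc-finger factor KLF9 was higher by 0.65 (adjusted p = 0.0235) and lost the call without dexamethasone replicate 2 or 3 or hydrocortisone replicate 2 or 4, at adjusted p of up to 0.21. With the vehicles subtracted its log2 difference was 0.001 (adjusted p = 1). The metallothionein MT2A, which shares long stretches with its neighbours so that reads may be split among them, was higher by 0.31 (adjusted p = 0.00243).

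FKBP5, the immunophilin that damps the receptor's own hormone binding, did not pass. It had 51.7, 54.4 and 60.5 CPM with dexamethasone, against 41.3, 34.5 and 46.1 CPM with hydrocortisone and 27.5 to 32.9 CPM in vehicles. The groups did not overlap, and the log2 difference was 0.45 (95% interval 0.19 to 0.71, adjusted p = 0.0618). It passed without hydrocortisone replicate 4 (0.0476), without ribosomal RNA genes (0.0466), with DESeq2 (0.0178) and with the 6 libraries alone (0.0076), and over all alternatives the adjusted p ran from 0.00287 to 0.339. DUSP1, a phosphatase of MAP kinases, ran from 135 to 163 CPM with dexamethasone and from 83.6 to 131 CPM with hydrocortisone (log2 0.44, SE 0.34, adjusted p = 0.661). NR3C1 itself stood at 56.1, 58.8 and 64.8 CPM with dexamethasone, against 70.3, 67.6 and 70.9 CPM with hydrocortisone (log2 -0.22, SE 0.09, adjusted p = 0.242). HSD11B1 and HSD11B2, the enzymes that activate and inactivate cortisol, were not among the genes tested.

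**Figure D2:**
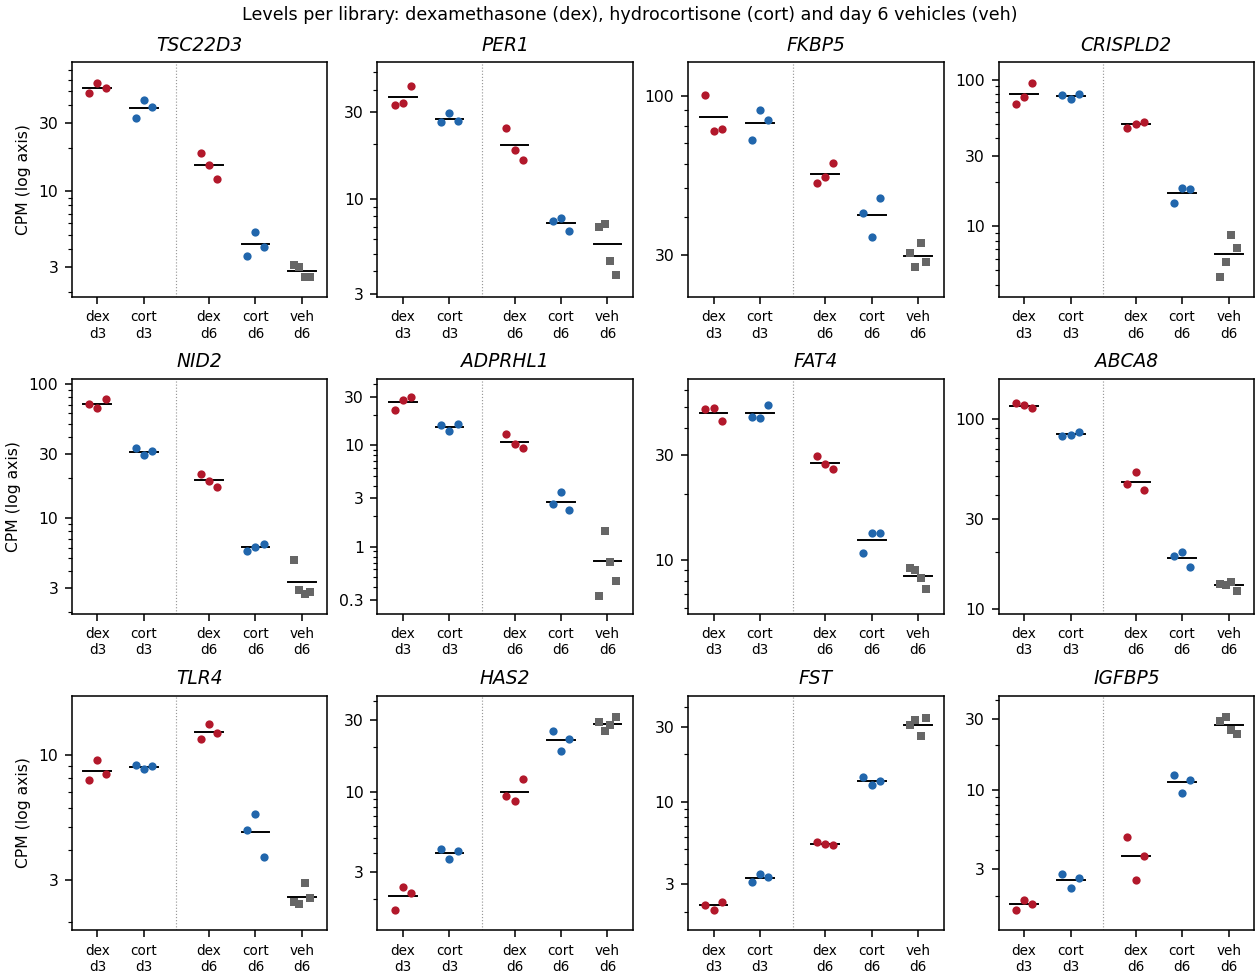
CPM on a log axis for 12 genes in each library of dexamethasone 1 µM (dex, red), hydrocortisone 10 µM (cort, blue) and the 4 vehicles (veh, grey squares); d3 is day 3 with hormone, d6 day 6 after washout, and bars are group means. For TSC22D3, CRISPLD2 and ABCA8 the day 6 dexamethasone libraries lie above those of hydrocortisone, and for HAS2, FST and IGFBP5 below them.

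Among 22 tested genes of corticosteroid receptors, chaperones and steroid metabolism, 2 rose and 1 fell, beside 0.993% and 0.951% of all genes. ABCB1, the drug efflux pump P-glycoprotein that carries dexamethasone out of cells, had 16.3, 15.4 and 17 CPM with dexamethasone, against 10.0, 9.87 and 12.2 CPM with hydrocortisone (1.52-fold, adjusted p = 0.00383), and passed also with the vehicles subtracted. UGT2B7, an enzyme that conjugates steroids, was 1.80-fold higher (10.4 to 14.2 CPM with dexamethasone and 5.88 to 7.33 CPM with hydrocortisone, adjusted p = 0.000685). FKBP4, a co-chaperone of the receptor, was lower by 0.33 on the log2 scale (adjusted p = 0.00964), but not without dexamethasone replicate 3 or hydrocortisone replicate 4 (up to 0.103). Of 20 clock genes 1, PER1, passed, beside 1.94% of all genes.

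Some interferon-stimulated genes were higher with dexamethasone. Of 32 tested members 4 rose and 0 fell, beside 0.993% and 0.951% of all genes. The list's median was 0.31, and in 31 of 32 the difference was above 0, against 8242 of 16816 genes tested. Flasks without hormone differed by as much the other way: between the day 3 vehicles, dex vehicle high3 over cort vehicle high3, the list's median was -0.33, 3 of 32 members were above 0, and 0 rose and 1 fell. The part of such differences between flasks in the day 6 values was not tested. The 4 that passed were IFIT1, IFIT2 and IFIT3, neighbours on chromosome 10 whose proteins bind viral RNA or its translation machinery, and EPSTI1, another interferon-induced gene. IFIT2 had 4.84, 4.28 and 5.16 CPM with dexamethasone, against 2.59, 2.04 and 1.46 CPM with hydrocortisone and 1.21 to 2.91 CPM in vehicles (2.34-fold, adjusted p = 0.00212). IFIT1 had 4.51, 6.12 and 4.29 CPM with dexamethasone and 1.85, 2.75 and 2.08 CPM with hydrocortisone (adjusted p = 0.00908). IFIT3 had 6.15, 6.62 and 5.63 CPM with dexamethasone and 3.18, 2.27 and 2.88 CPM with hydrocortisone (adjusted p = 0.00964). In all 3 the hydrocortisone and vehicle libraries shared a range. EPSTI1 had 2.59, 3.27 and 2.31 CPM with dexamethasone and 1.22, 1.32 and 1.66 CPM with hydrocortisone (adjusted p = 0.0202). Calls were lost when single libraries were left out. IFIT2 stood at 0.05 without hydrocortisone replicate 4, and IFIT1 at up to 0.095 without hydrocortisone replicate 2 or 4 or dexamethasone replicate 3. IFIT3 stood at up to 0.0917 without hydrocortisone replicate 3 or dexamethasone replicate 3, and EPSTI1 at up to 0.168 without replicate 2 or 3 of either hormone. STAT2, a transcription factor of the pathway, had a log2 difference of 0.23 and did not pass. The list's count was 1 without dexamethasone replicate 3 and 2 without hydrocortisone replicate 2, 3 or 4. With the vehicles subtracted it was 0, and DESeq2 gave 6.

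The promoters of the 3 genes of these 4 that have an entry are shown because all hold a sequence feature that is common in the list; IFIT2 has no matched entry. Capitals mark 2 copies of GAAA set 2 bases apart and followed by any base and a T, on either strand, the core of the interferon-stimulated response element. All are from RefSeq on GRCh38.p14, 250 bases before to 50 after the start. IFIT1 is at chr10:89392373-89392672 and IFIT3 at chr10:89327747-89328046, both on the plus strand. For IFIT3, which has 2 starts, the first that holds a match is shown. EPSTI1 is at chr13:42992192-42992491 on the minus strand.
IFIT1: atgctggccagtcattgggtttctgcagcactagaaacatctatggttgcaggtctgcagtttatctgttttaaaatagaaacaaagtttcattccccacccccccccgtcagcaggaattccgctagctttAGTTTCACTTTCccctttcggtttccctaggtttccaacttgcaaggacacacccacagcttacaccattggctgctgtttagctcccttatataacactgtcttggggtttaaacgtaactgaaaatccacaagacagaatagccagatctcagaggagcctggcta
IFIT3: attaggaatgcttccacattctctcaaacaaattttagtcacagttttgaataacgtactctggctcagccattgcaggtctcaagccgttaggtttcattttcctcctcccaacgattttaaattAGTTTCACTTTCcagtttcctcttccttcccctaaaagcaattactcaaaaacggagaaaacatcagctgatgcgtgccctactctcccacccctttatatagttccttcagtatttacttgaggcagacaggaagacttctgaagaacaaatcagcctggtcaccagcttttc
EPSTI1: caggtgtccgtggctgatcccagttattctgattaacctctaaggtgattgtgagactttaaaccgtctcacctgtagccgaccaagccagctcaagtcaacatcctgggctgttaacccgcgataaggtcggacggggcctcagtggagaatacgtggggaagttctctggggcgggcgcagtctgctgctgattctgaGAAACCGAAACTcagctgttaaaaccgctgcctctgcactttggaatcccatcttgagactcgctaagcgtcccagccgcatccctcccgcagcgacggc
The first base of the match lay 118 bases before the start in IFIT1, 124 in IFIT3 and 50 in EPSTI1. The feature was present in 318 of 35116 promoters (0.906%), counted by start. Counting a gene if any of its starts holds it, it was in 15 of the 26 tested list members that have an entry. By gene it was also in 5 of 123 higher and 2 of 113 lower genes.

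SP110, a nuclear body protein that interferon also induces and that stands outside the list, was among the largest rises with 14, 18 and 13.1 CPM with dexamethasone, against 5.4, 7.30 and 6.87 CPM with hydrocortisone (2.30-fold, adjusted p = 1.69e-07). Of 22 tested cytokine and NF-kB genes 2 rose, beside 0.993% of all genes. They were NFKBIA and CSF1, the growth factor of macrophages. CSF1 had 3.5 to 5.03 CPM with dexamethasone and 1.83 to 2.81 CPM with hydrocortisone (adjusted p = 0.0223), and lost the call without dexamethasone replicate 2 or 3 or hydrocortisone replicate 3 or 4 (up to 0.19). TLR4, the receptor for bacterial lipopolysaccharide, had 11.6, 13.5 and 12.3 CPM with dexamethasone, against 4.87, 5.67 and 3.75 CPM with hydrocortisone and 2.37 to 2.90 CPM in vehicles. The 3 groups did not overlap (2.62-fold, log2 1.39, SE 0.28, adjusted p = 0.00398), and without hydrocortisone replicate 4 the adjusted p was 0.0526. IL6 and CCL2, both cytokine genes, had log2 differences of -0.03 and -0.19 that did not pass.

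Of 28 tested p53 targets 4 rose and 1 fell, beside 0.993% and 0.951% of all genes, with a median of 0.23. MDM2, the ligase that degrades p53, had 136, 137 and 125 CPM with dexamethasone, against 87.8, 91.5 and 95.2 CPM with hydrocortisone and 83.6 to 91.0 CPM in vehicles (1.45-fold, adjusted p = 0.000128). CDKN1A, the cell cycle inhibitor p21, had 98.9, 68.5 and 73.5 CPM with dexamethasone and 54.6, 59.0 and 48.6 CPM with hydrocortisone (1.49-fold, log2 0.57, adjusted p = 0.000715). It did not pass with the 6 libraries alone (0.0558), with the 16 libraries of day 6 (0.0526) or with the vehicles subtracted (log2 0.29, adjusted p = 0.599). TP53INP1, a stress-induced partner of p53, was 1.49-fold higher (adjusted p = 0.00275). The repair factor DDB2 was higher by 0.43 and the kinase PLK2 lower by 0.29 (log2 -0.29), and both lost the call without dexamethasone replicate 2 or 3 or hydrocortisone replicate 4 (up to 0.0846 and 0.111), PLK2 also without hydrocortisone replicate 2 or 3. None of 43 G2/M genes passed and 1 of 46 S-phase genes did, POLE at 0.41, which lost the call without any of 5 libraries, all but dexamethasone replicate 4 (up to 0.164), and had a log2 value of -0.06 with the vehicles subtracted.

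Matrix genes went both ways, with more of them higher. Among 63 tested extracellular matrix genes 12 rose and 2 fell, beside 0.993% and 0.951% of all genes, at a median of 0.01. NID2, nidogen-2, a basement membrane linker, had 21.4, 18.9 and 17 CPM with dexamethasone, against 5.72, 6.07 and 6.42 CPM with hydrocortisone and 2.70 to 4.85 CPM in vehicles (GRCh38 chromosome 14, 52004803 to 52069228). It had the smallest p of all genes, and the groups did not overlap (3.15-fold, log2 1.65, SE 0.14, adjusted p = 8.35e-11). FBN1, the microfibril protein fibrillin-1, had 64.1, 53.5 and 56.0 CPM with dexamethasone, against 24.7, 25.4 and 31.5 CPM with hydrocortisone (2.13-fold, adjusted p = 2.54e-07). Other members that rose were the collagen chains COL4A5, COL5A1, COL7A1 and COL12A1, FBN2, the laminin chains LAMA3 and LAMB2, HSPG2 (perlecan), EFEMP1 and CRISPLD2, by 0.30 to 1.55 on the log2 scale. COL1A1 and COL1A2, the chains of type I collagen, had log2 differences of 0.10 and 0.05 that did not pass. The count of rises fell to 5 without dexamethasone replicate 2 and to 7 without hydrocortisone replicate 2 or 3, and NID2, FBN1, COL5A1, EFEMP1 and CRISPLD2 stayed past the threshold without any of the 6 libraries. The other 7 lost the call without dexamethasone replicate 2, and over the 6 fits reached adjusted p of up to 0.432 (LAMB2). With the vehicles subtracted NID2, CRISPLD2 and HAS2 stayed past it.

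HAS2, the synthase of hyaluronan and a gene that glucocorticoids repress in skin fibroblasts, was the lower matrix gene with the larger difference. Its level was 9.41, 8.80 and 12.2 CPM with dexamethasone, against 25.4, 18.8 and 22.5 CPM with hydrocortisone and 25.4 to 31.1 CPM in vehicles (2.19-fold lower, log2 -1.13, SE 0.13, adjusted p = 1.36e-07). All dexamethasone libraries lay below all others, and the highest hydrocortisone library met the lowest vehicle. THBS2, the antiangiogenic thrombospondin-2, was lower at a log2 of -0.46 (adjusted p = 0.000115). Among 31 proteases and inhibitors 4 fell, beside 0.951% of all genes. Tissue factor (F3), the starter of coagulation, had 14.3, 16.2 and 21.8 CPM with dexamethasone, against 46.1, 37.1 and 38.9 CPM with hydrocortisone and 64.4 to 72.0 CPM in vehicles (2.33-fold lower, adjusted p = 2.46e-06). The other 3 were the thrombin inhibitor SERPINE2 (log2 -0.60) and the metalloproteinases ADAMTS5 (-0.80) and ADAMTS6 (-0.69), and this count was the same without each of the 6 libraries.

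FST and IGFBP5 were among the largest falls. FST, follistatin, which binds and blocks activin, had 5.54, 5.37 and 5.30 CPM with dexamethasone, against 14.4, 12.8 and 13.5 CPM with hydrocortisone and 26.1 to 34.2 CPM in vehicles (2.51-fold lower, log2 -1.33, SE 0.21, adjusted p = 0.000179). IGFBP5, a binding protein of insulin-like growth factors, had 4.90, 2.52 and 3.64 CPM with dexamethasone, against 12.7, 9.53 and 11.7 CPM with hydrocortisone and 23.8 to 30.6 CPM in vehicles (3.05-fold lower, log2 -1.61, SE 0.19, adjusted p = 7.76e-07). For both genes the dexamethasone, hydrocortisone and vehicle libraries formed 3 separate ranges. Within the list of the TGF-beta, activin and YAP/SRF response 4 of 42 genes rose and 6 fell, beside 0.993% and 0.951% of all genes. The activin subunits INHBA and INHBB fell (log2 -0.47 and -0.45), as did TGFBI (-0.49), FSTL1 (-0.27) and calponin CNN1 (-0.49), while LTBP2, a TGF-beta binding protein, and ANKRD1, a YAP target, rose by 0.71 and 0.65. FSTL3 rose by 0.39. FSTL3 and INHBA lost the call without hydrocortisone replicate 4 (adjusted p = 0.114 and 0.0846), FSTL3 also without dexamethasone replicate 2 or 4 (up to 0.115). With the vehicles subtracted FST stayed past the threshold. INHBA, INHBB, TGFBI, FSTL1, CNN1, LTBP2, ANKRD1 and FSTL3 kept their direction there and lost the call. LTBP2 and INHBB also differed between the day 3 vehicles, with values given below. Of 18 genes of the insulin-like growth factor axis 3 rose and 2 fell, beside the same shares of all genes. The rises, IGFBP7 (0.49), IGF2R (0.41) and STC2 (0.38), lost the call when certain single libraries were left out. STC2 stood at 0.0556 without hydrocortisone replicate 3, and IGF2R at up to 0.0798 without hydrocortisone replicate 2 or 3 or dexamethasone replicate 3. IGFBP7 stood at up to 0.281 without hydrocortisone replicate 2 or 4 or dexamethasone replicate 2 or 3. IGFBP3 was lower, at 34.4, 31.9 and 32.6 CPM with dexamethasone and 55.1, 50.4 and 53.6 CPM with hydrocortisone (log2 -0.68, adjusted p = 5.83e-08), but the day 3 vehicles of the hormones differed by as much (log2 -0.69, adjusted p = 2.8e-07) and with the vehicles subtracted it did not pass (0.218).

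**Figure D3:**
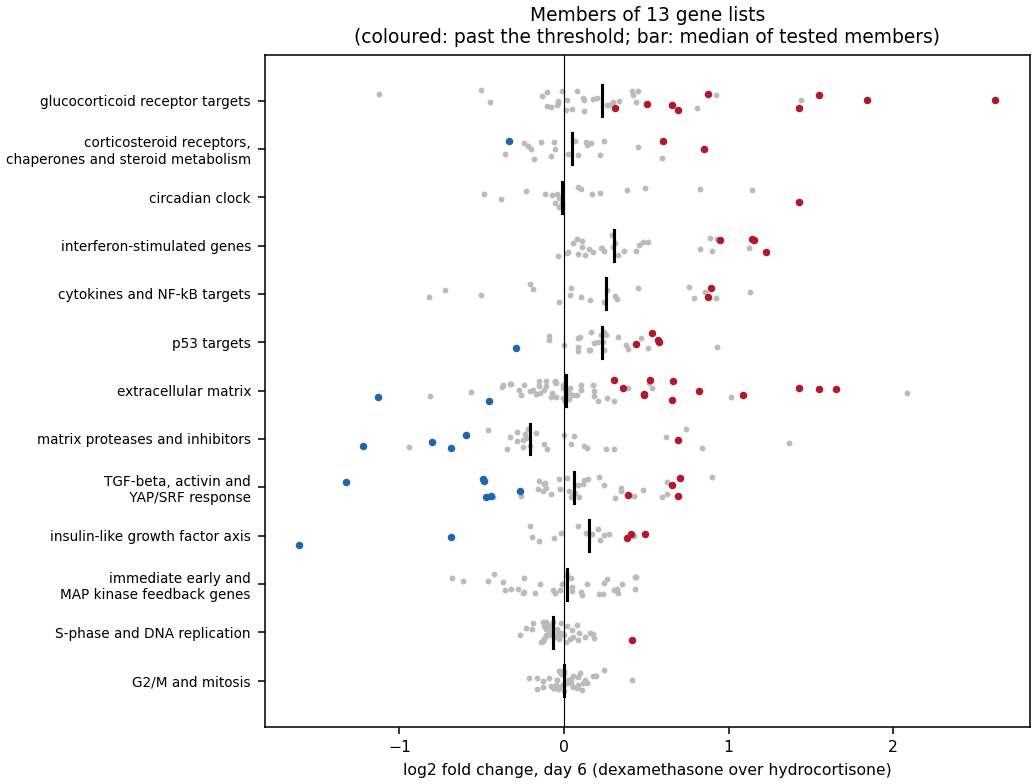
Log2 fold change of dexamethasone over hydrocortisone on day 6 (x axis) for each tested member of 13 gene lists; red and blue points passed an adjusted p of 0.05, grey points did not, and the black bar is the list's median. Of the receptor targets 9 of 40 are red, and of the matrix genes 12 are red and 2 blue.

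Several of the largest differences fell outside the lists. ADPRHL1, a pseudoenzyme of the ADP-ribosyl hydrolase family studied mostly in heart, had 13, 10.3 and 9.41 CPM with dexamethasone, against 2.65, 3.43 and 2.29 CPM with hydrocortisone and 0.324 to 1.42 CPM in vehicles (3.90-fold, log2 1.96, SE 0.28, adjusted p = 3.3e-05). ABCA8, a lipid transporter, had 45.3, 52.4 and 42.3 CPM with dexamethasone, against 19.1, 20.1 and 16.6 CPM with hydrocortisone and 12.5 to 13.9 CPM in vehicles (2.50-fold, log2 1.32, SE 0.12, adjusted p = 2.1e-10). In both the 3 groups formed separate ranges. Large rises were also seen for the creatine transporter SLC16A12 (2.69-fold), the inositol phosphate kinase IP6K3 (2.39-fold), the long noncoding RNA CERNA2 (2.30-fold) and the giant cadherin FAT4 (2.24-fold), each past the threshold without any of the 6 libraries. Among the falls, SPNS2, an exporter of sphingosine-1-phosphate, was 2.25-fold lower with 4.93, 3.35 and 5.66 CPM with dexamethasone and 11.6, 8.96 and 10.9 CPM with hydrocortisone (adjusted p = 0.000743). NPPB, the precursor of brain natriuretic peptide, was 1.90-fold lower (21.8 to 26.2 CPM with dexamethasone and 43.2 to 46.4 CPM with hydrocortisone). The kisspeptin gene KISS1, the membrane protein TM4SF1 and INSYN2B were 1.85 to 1.89-fold lower. With the vehicles subtracted ABCA8, SLC16A12, CERNA2, FAT4, KISS1 and INSYN2B stayed past the threshold. ADPRHL1, IP6K3, SPNS2, NPPB and TM4SF1 kept their direction and lost the call (log2 1.71, 1.55, -0.96, -0.72 and -0.73).

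PSG1 and PSG11 encode pregnancy-specific glycoproteins, secreted relatives of the CEACAM family made chiefly by placenta. PSG1 had 12.7, 11.9 and 14 CPM with dexamethasone, against 33.2, 22.2 and 27.4 CPM with hydrocortisone and 51.1 to 75.6 CPM in vehicles (2.14-fold lower, adjusted p = 3.94e-05). PSG11 was 2.16-fold lower (adjusted p = 0.00168, and 0.111 without hydrocortisone replicate 2). With the vehicles subtracted neither passed (PSG1 log2 -0.88, adjusted p = 0.104, and PSG11 log2 -0.59, adjusted p = 0.599). These genes are nearly identical, so reads may have been split among them. Some of the other large falls were uncertain. DCDC2, a doublecortin domain protein, had 0.961, 1.43 and 1.15 CPM with dexamethasone, against 5.77, 3.80 and 2.91 CPM with hydrocortisone and 7.39 to 15.4 CPM in vehicles (log2 -1.82, SE 0.49, adjusted p = 0.0448), and it lost the call without any single library (up to 0.206). The small RNA SCARNA5, the keratin-associated gene KRTAP2-3 and TMEM158 each lost it without 4 or 5 of the libraries, among them dexamethasone replicate 3 and hydrocortisone replicates 2 and 4 (up to 0.22, 0.23 and 0.366).

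Each hormone was also set against the mean of the 4 day 6 vehicle libraries. Against these, 1708 genes (10.2%) passed for dexamethasone and 150 (0.892%) for hydrocortisone. The counts share their vehicles and share the hormone libraries with the direct comparison, so the values are given side by side only. For the 167 genes higher with dexamethasone the median log2 fold change over vehicle was 0.71 for dexamethasone and 0.11 for hydrocortisone, and for the 160 lower genes it was -0.62 for dexamethasone and -0.16 for hydrocortisone. TSC22D3 stood at 2.47 for dexamethasone (adjusted p = 5.65e-09) and at 0.62 for hydrocortisone (adjusted p = 0.242). CRISPLD2 stood at 2.96 and 1.41 (adjusted p = 5.17e-15 and 1.97e-06), and IGFBP5 at -2.87 and -1.26 (4.26e-13 and 6.04e-05), in the same order of hormones. The receptor target list had 21 genes above and 2 below vehicle for dexamethasone and 3 above for hydrocortisone, and the interferon list 12 and 0 above. The hydrocortisone count fell to 34 without hydrocortisone replicate 3, 68 without hydrocortisone replicate 4 and 77 without the vehicle dex vehicle high6 replicate 4, and the dexamethasone count to 1063 without dexamethasone replicate 2.

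**Figure D4:**
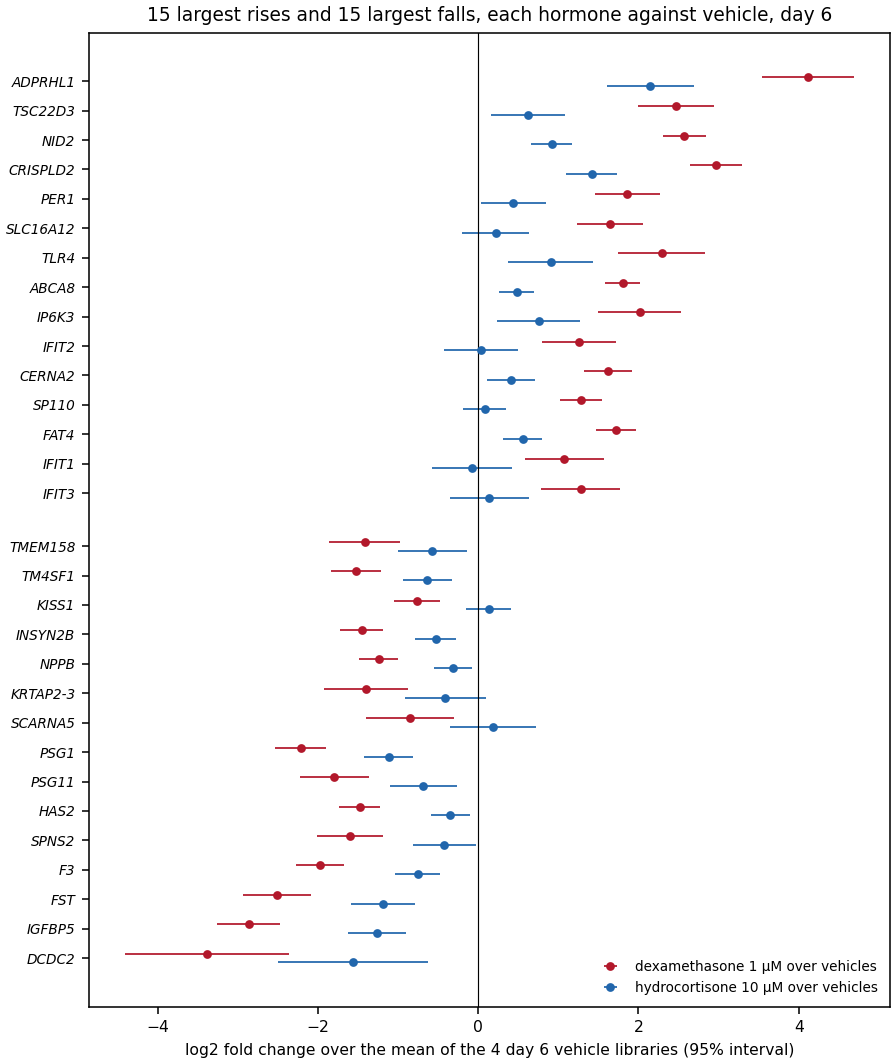
Log2 fold change over the mean of the 4 day 6 vehicle libraries (x axis, points with 95% intervals) for dexamethasone (red, upper) and hydrocortisone (blue, lower) in the 15 largest rises and 15 largest falls of the direct comparison. The red point lies farther from 0 than the blue one for each gene drawn; ADPRHL1 stands at 4.11 with dexamethasone and 2.15 with hydrocortisone.

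Lists of general stress and growth held few genes that passed, though some leaned lower with dexamethasone. The difference was above 0 in 3 of 19 heat shock genes (median log2 -0.182) and 7 of 33 hypoxia and glycolysis genes (-0.079). It was above 0 in 9 of 27 antioxidant (-0.039), 13 of 46 S-phase (-0.069) and 18 of 35 immediate early genes (0.018). Over all genes the median was -0.005. With the vehicles subtracted these lists had medians of 0.061, 0.079, 0.045, 0.009 and -0.448, in that order. None of 35 immediate early genes passed, none of 33 genes of the ATF4 and unfolded protein response and none of 13 mitochondrially encoded genes. Among 19 heat shock genes CRYAB rose by 0.97 and HSPD1 fell (log2 -0.25). Among 27 antioxidant genes FTL, the ferritin light chain, fell (-0.28), and among 33 genes of hypoxia and glycolysis HK2 fell (-0.44). Of 10 metallothioneins and zinc transporters MT2A and MT1E rose. These are 1 or 2 calls a list, to be read against 1.94% of all genes. All of these but MT2A lost the call without at least 1 library: CRYAB without hydrocortisone replicate 4 (0.0776), HK2 without hydrocortisone replicate 4 or dexamethasone replicate 4 (up to 0.102), and HSPD1, FTL and MT1E without 4 to 6 of the libraries, dexamethasone replicate 3 and hydrocortisone replicate 3 among them (up to 0.256). Of the markers of 6 cell types 1 passed, VIM, at a log2 of -0.22 with 837 to 857 CPM with dexamethasone and 950 to 1040 CPM with hydrocortisone (adjusted p = 0.0153), which lost the call without dexamethasone replicate 3 or hydrocortisone replicate 3 (up to 0.155).

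While the hormones were still present the same doses differed in few genes. On day 3, 23 of 16816 genes (0.137%) passed between dexamethasone and hydrocortisone, 6 higher and 17 lower, and it fell whichever of those 6 libraries was left out, to between 7 without dexamethasone replicate 2 and 15 without hydrocortisone replicate 3. Of the 23 genes 16 passed on day 6 in the same direction and 0 in the opposite one, which is 69.6% of the day 3 genes and 4.89% of the day 6 genes. They were NID2, AOX1, SLC16A12, ALCAM and CFLAR, higher on both days, and IGFBP3, HAS2, NPPB, ST6GAL2, ZBTB18, THBS2, CDH13, SLC8A1, INHBB, NLRP10 and SPOCK1, lower on both. With the day 3 vehicles subtracted 5 genes passed on day 3, 2 of them among the 23. IGFBP3, at a log2 of -0.78 between the hormones on day 3, stood at -0.69 between the day 3 vehicles. INHBB also differed between those vehicles, as given below. NID2 had 70.9, 65.7 and 76.5 CPM with dexamethasone on day 3, against 33.1, 29.3 and 31.3 CPM with hydrocortisone (log2 1.19, adjusted p = 6.9e-07). HAS2 had 1.69, 2.38 and 2.19 CPM with dexamethasone and 4.22, 3.68 and 4.11 CPM with hydrocortisone (log2 -0.93, adjusted p = 6.01e-05). The 167 genes higher on day 6 had a median log2 difference of 0.13 on day 3 and 0.60 on day 6, and were above 0 on day 3 in 145 cases. The 160 lower genes had medians of -0.14 on day 3 and -0.43 on day 6, and were below 0 on day 3 in 132 cases. The day 6 medians are those of genes chosen on day 6 and are given as a description.

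The difference between the hormones itself changed between the days for 12 genes (0.0714%), 9 becoming more positive and 3 more negative (interaction term of the same fit). In each of these, the hormones were closer on day 3 or lay in the opposite order. CRISPLD2 had 67.8, 76.1 and 94.1 CPM with dexamethasone on day 3, against 78.0, 73.9 and 79.8 CPM with hydrocortisone, and the groups overlapped. On the log2 scale its day 6 difference was larger than that of day 3 by 1.51, with SE 0.23 (adjusted p = 0.000794). FAT4, with 43.2 to 49.2 CPM with dexamethasone and 44.7 to 50.8 CPM with hydrocortisone on day 3, changed by 1.16 (adjusted p = 0.000662). PSG1 had 5.51, 5.72 and 5.59 CPM with dexamethasone, against 4.58, 4.65 and 3.67 CPM with hydrocortisone, on day 3. That day 3 difference did not pass (log2 0.38, adjusted p = 0.622), and the day 3 vehicles differed by 0.44 in the same direction (adjusted p = 0.188). Its change was -1.48 (adjusted p = 0.000662). IL7R, the interleukin 7 receptor, had 17.5 to 21.8 CPM with dexamethasone and 13.8 to 16 CPM with hydrocortisone on day 3, and 25.1 to 27.0 and 34.3 to 36.8 CPM in the same order on day 6, a change of -0.80. TSC22D3 and PER1 had 48.6 to 56.6 and 32.8 to 41.9 CPM with dexamethasone on day 3, against 32.4 to 43.1 and 26.4 to 29.8 CPM with hydrocortisone, and their changes between the days did not pass (adjusted p = 0.193 and 0.305). The count of 12 ran from 10 to 15 without a single library. Same-numbered hydrocortisone libraries of the days deviated together and those of dexamethasone did not, and this fit does not use the numbers as pairs.

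**Figure D5:**
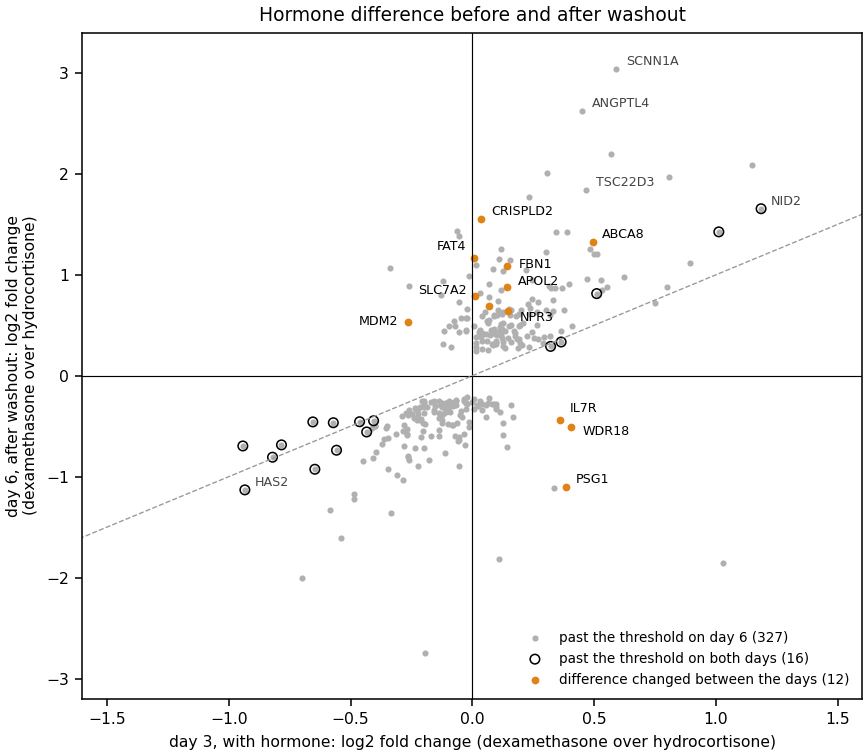
Log2 fold change of dexamethasone over hydrocortisone on day 3 with hormone (x axis) and on day 6 after washout (y axis) for the 327 genes that passed on day 6 (grey); circles passed on both days, orange genes changed their difference between the days, and the dashed line marks equal values. Most points lie farther from 0 on day 6, where they were chosen; PSG1, IL7R and WDR18 lie right of 0 on day 3 and below 0 on day 6.

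Vehicle libraries gave a measure of how far flasks differ without hormone. On day 3 the vehicle of the high dexamethasone dose differed from that of the high hydrocortisone dose in 71 genes (0.422%), 33 higher and 38 lower, more than the 23 of the hormones themselves on that day. That count rested on single libraries, running from 3 without dex vehicle high3 replicate 2, 8 without cort vehicle high3 replicate 1 (91.4% ribosomal RNA), 17 without dex vehicle high3 replicate 1, 33 without cort vehicle high3 replicate 3 and 46 without dex vehicle high3 replicate 4 to 218 without cort vehicle high3 replicate 2. Of the 89 genes named for the direct comparison 6 differed between those vehicles: IGFBP3 (log2 -0.69), LTBP2 (-0.57), COL5A1 (-0.53), APOL2, an apolipoprotein L (-0.42), INHBB (-0.39) and MDM2 (-0.37). Day 6 had 1 vehicle library per dose, so the same comparison has no replicate there. Among the 89 named genes, 26 kept their side of the threshold and direction with the vehicles subtracted, 59 lost the call and 4 changed sign (POLE, DUSP1, LAMB2 and SCNN1A).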

How the data were processed

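Total RNA of HMC3 cells was sequenced in 43 libraries of 17 groups, per the labels on a stranded kit. The authors deposited 1 table of raw counts per gene, made with STAR and featureCounts (Subread) on GRCh38 after FastQC, per the submitters' processing notes; versions, settings and the strand option were not stated in any source used, so reads of overlapping genes may be mixed. Of 20052 gene identifiers, 19978 symbols came from a table of gene names and 70 from GENCODE release 29. Libraries held 7638840 to 24426643 counts, 7 of them with over 75% ribosomal RNA, none of these among the 6 compared.

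Counts were tested with edgeR 4.0.16 in R 4.3.3: TMM scaling, a filter for low counts (minimum 10, total 15), 1 coefficient per group over all 43 libraries (26 residual degrees of freedom), a robust quasi-likelihood F test and Benjamini-Hochberg adjustment over 16816 genes at 0.05, for 6 comparisons. Vehicle-subtracted values of day 6 take each hormone minus the mean of its own high-dose and low-dose vehicles. Those of day 3 take each hormone minus its own high-dose vehicle. DESeq2 1.42.0 and the other alternatives are in the closing section. The fit was tested on simulated data. Promoters are those of RefSeq on GRCh38.p14, from 250 bases before to 50 after a start.

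Genes were named by rule: the 15 largest rises and 15 largest falls that passed, with non-overlapping libraries and a mean level of 1 log2 CPM or more, up to 3 per list by smallest p, 12 fixed genes (HSD11B1 and HSD11B2 of these were not tested), and the 6 smallest p of the change between days. That gave 58 genes. The other 31 were chosen after their values were seen: 26 further list members that passed, 4 further genes whose difference changed, and SCNN1A. Members and lists were chosen with earlier results of these data known. The replicate numbers were not used as pairs in the main fit. Some genes that enter the counts are not reported here by name.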

Additional observations from a re-analysis of the deposited data

Results flagged for a closer look

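For 12 genes the difference between dexamethasone and hydrocortisone on day 6 differed from that on day 3 by the interaction term of the edgeR fit (adjusted p below 0.05), and 11 of them are given here. The values are log2 differences of day 6 minus those of day 3. It was 1.51 for CRISPLD2 (adjusted p = 0.000794), 1.16 for FAT4 (0.000662), 0.95 for FBN1 (0.00819), 0.83 for ABCA8 (0.0107), 0.80 for MDM2 (0.000662), 0.78 for the amino acid transporter SLC7A2 (0.00133), 0.74 for APOL2 (0.000794) and 0.50 for the natriuretic peptide receptor NPR3 (0.0107). It was -1.48 for PSG1 (0.000662), -0.91 for WDR18 (0.00371) and -0.80 for IL7R (0.000662). MDM2 and APOL2 also differed between the day 3 vehicles, and the part of this in their change was not tested.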

How the results depend on the processing

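The 327 genes of the direct comparison became 657 without ribosomal RNA genes, 554 without libraries over 75% ribosomal RNA, 820 with the 6 libraries alone, 507 with DESeq2, 162 at an adjusted p below 0.01 and 88 with the vehicles subtracted, and 161 to 264 without a single library. The dexamethasone count against vehicle ran from 1063 to 1726 without a single library. The hydrocortisone count of 150 became 250 without ribosomal RNA genes and 238 with DESeq2, and 34 to 173 without a single library. The day 3 count of 23 became 5 with the vehicles subtracted, 50 with its 6 libraries alone and 7 to 15 without a single library. The 12 genes whose difference changed became 32 without ribosomal RNA genes, 68 with 12 libraries alone and 33 with DESeq2. The day 3 vehicle count of 71 became 45 without libraries over 75% ribosomal RNA and 3 to 218 without a single library. With the replicate number as a block the direct comparison gave 338 genes in all libraries and 894 in the 6 libraries, and the change between days 91 in 12 libraries. Same-numbered dexamethasone and hydrocortisone libraries of day 6 deviated from their group means with correlations over genes of -0.003, -0.006 and 0.221. Differently numbered ones ran from -0.220 to 0.182. Deviations from a mean of 3 libraries are tied to each other, so these values cannot decide whether the numbers pair the hormones. Between day 3 and day 6 the same-numbered hydrocortisone libraries correlated at 0.235, 0.184 and 0.200, each best with its own number, and those of dexamethasone at -0.187, 0.008 and -0.017. With the vehicles subtracted 4 genes changed sign, at log2 values of -0.055 for POLE, -0.015 for DUSP1, -0.086 for LAMB2 and -1.65 for SCNN1A. That contrast holds 1 high-dose and 1 low-dose vehicle library per hormone, and the cause was not tested. Over 1424 values of the 89 named genes under alternatives, 1206 kept direction and side of the threshold, 209 lost the call and 5 gained it. In 13 of the 327 genes a library held under 10 counts.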
